A study of Homo sapiens with 12 samples.

Results

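LM2 cells that had transited constrictions were compared with LM2 cells that had not, over the 97 genes of the table deposited for this comparison, out of 3090 distinct genes listed for the 3 cell lines of the series. All genes of that table were taken as members, with no further rule. LM2 is a human breast cancer line that was derived from MDA-MB-231 by selection for growth in the lung. Poly A enriched RNA was sequenced from 2 constriction libraries and 2 control libraries, and the other 8 of the 12 libraries of the series were the same groups of MDA-MB-231 and of MCF-10A, a non-malignant breast epithelial line. The constriction cells were driven by a hydrostatic pressure of 7 to 33 cmH2O through channels 150 µm long with a 5 µm by 5 µm section and were collected after transit, and the control cells did not transit. Neither group carried a genetic change or a drug in the labels. The study describes the replicates as repeated experiments in which cells from several chips were pooled, and in both LM2 replicates fewer constriction cells than control cells were collected and less RNA was recovered from them. For the level of a transcript in bulk RNA, fewer cells that hold it and less of it per cell cannot be told apart.

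The table lists genes that the study's own comparison of these same 4 libraries selected, so the direction and size of every member were part of how it was chosen. The counts and tests that follow describe these genes and are no independent evidence that they changed. No marker of the 19 epithelial, 16 mesenchymal and 9 MCF-10A basal symbols that were looked for was among the 97 genes, so the cell type could not be checked from the table. Total reads, recovered from counts, FPKM and gene lengths, were 37783865 and 50773550 in the constriction libraries and 51417322 and 47321927 in the control libraries. The 97 genes held from 0.163% to 0.403% of them.

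The question was which transcripts differ once a cell has passed a channel as narrow as a capillary. The constriction cells were detached, loaded in suspension and collected after the devices had run. For the control cells the study describes only that they did not transit. Passing the channel cannot be told apart from the time and handling in the device. Cells that are stretched, stressed or given a growth factor switch on immediate early genes within minutes, without new protein synthesis. Their products include transcription factors of the FOS and EGR families, and, beside them, feedback proteins such as the phosphatase DUSP1, which switches off MAP kinases, and ZFP36, which binds AU-rich messages and speeds their decay. The messages are short lived, so their level follows recent signalling closely.

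Of the 97 genes, 52 had a higher mean after transit and 45 a lower one, or 53.6% and 46.4%. The 2 groups did not overlap (each constriction value above, or each below, every control value) in 80 genes, 82.5% of the table, with 41 of them higher (42.3%) and 39 lower (40.2%). That share was 94.5% of the 381 genes listed for MDA-MB-231 and 96.8% of the 2680 listed for MCF-10A. The direction differed by kind of gene. Of 31 coding genes, 21 were lower and 10 higher, whereas 11 of 13 processed pseudogenes, 4 of 5 unprocessed pseudogenes, 8 of 10 small non-coding RNA genes and 4 of 5 sense intronic genes were higher. Antisense genes were split, 10 higher and 9 lower, and 5 of 6 lincRNA genes were lower. The remaining members were 3 immunoglobulin constant genes, all lower, 3 unclassified genes (2 higher), 1 mitochondrial rRNA and 1 processed transcript, both higher. By mean normalised count, 20 of the 45 genes under 10 were lower, 25 of the 52 at 10 or more, 12 of the 22 at 100 or more and 9 of the 12 at 1000 or more.

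edgeR's quasi-likelihood test, adjusted by the Benjamini-Hochberg method over the 97 genes, called 0 of them at 0.05 (0% of the table), and the smallest adjusted p was 0.116. At an unadjusted p under 0.05 it counted 40, of which 19 were higher and 21 lower. This count was 70 (43 higher and 27 lower) with TMM factors of the listed genes, 8 (3 and 5) with crossed replicate numbers, 7 (6 and 1) without control replicate 1 and 11 (3 and 8) without control replicate 2, so neither the count nor its split held across settings. DESeq2 with the deposited size factors called 5 after adjustment, RPL39P3, ID3, XAGE1B, AL355032.1 and HIST1H1E. With the replicate number as a block, edgeR called 70 (72.2%), 38 higher (39.2%) and 32 lower (33%). The call under the block was least frequent where the counts were largest. It was made for 45 of 45 genes with a mean normalised count under 10, including all 15 with reads in essentially 1 library, and for 9 of 22 with a mean of at least 100. With the replicate numbers crossed edgeR called 0. The constriction library taken as replicate 2 carries 2 in its title and 1 in its description, so its number is itself uncertain. An exact permutation test of 2 libraries against 2 cannot give a p under 0.3333.

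**Figure D1:**
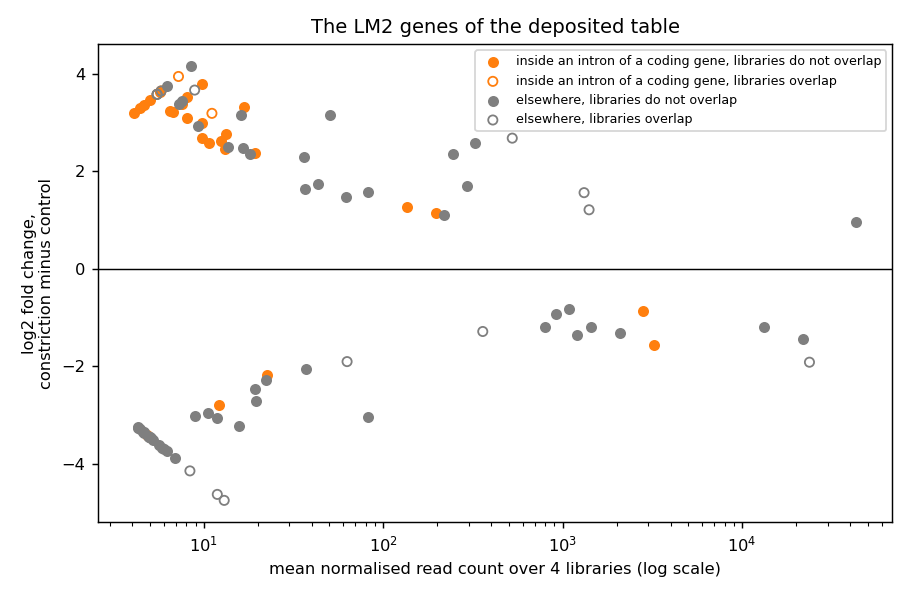
Log2 fold change (vertical axis, constriction minus control, on log2(mean normalised count + 1)) of the 97 LM2 genes against their mean normalised count over the 4 libraries (horizontal axis, log scale). Orange points are the 30 genes inside an intron of a coding gene and grey points the other 67; open points are genes whose constriction and control libraries overlap. Orange points lie mostly above 0, and 9 of the 12 genes with a mean of at least 1000 lie below it.

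Of the lists that were looked for, immediate early and feedback genes had the most members in the table, 6 of 44 symbols (EGR1, FOS, DUSP1, ZFP36, NR4A1 and ATF3). All 6 were lower in mean after transit, with a median log2 fold change of -1.25. The median was -1.32 for the 31 coding genes of the table, to which all 6 belong and of which 21 were lower. For the whole table it was 1.21. In 5 of the 6 the groups did not overlap, close to the 82.5% of the whole table. Values are given as normalised counts for replicates 1 and 2 of each group, that is, reads divided by a size factor for the depth of the library. Fold changes are on the scale of log2(mean normalised count + 1), constriction minus control, with a standard error (SE) from the spread between libraries.

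EGR1, a zinc finger transcription factor, had normalised counts of 15555 and 4318 in the constriction libraries and 62510.4 and 12552 in the control libraries. Control replicate 2 lay below constriction replicate 1, so the groups overlapped, although within each replicate number the constriction library was the lower. Its log2 fold change was -1.92 (SE 1.26). FOS, a subunit of the AP-1 factor, had 14695 and 8745 in the constriction libraries and 44036 and 19689 in the control libraries. Each constriction library was lower than each control library, and the log2 fold change was -1.44 (SE 0.66). DUSP1 had 6649 and 9519 in the constriction libraries and 19028 and 17729.8 in the control libraries, a log2 fold change of -1.18 (SE 0.26), which of the 6 was the one with the least spread between libraries.

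ZFP36 had 1421 and 979.6 in the constriction libraries and 4119 and 1867 in the control libraries, with a log2 fold change of -1.32 (SE 0.60). NR4A1, an orphan nuclear receptor, had 568 and 399.7 in the constriction libraries and 1597 and 609.6 in the control libraries, with a log2 fold change of -1.19 (SE 0.69), and its exons overlap those of a gene on the other strand, AC025259.3, whose reads cannot be told apart from it if strand was not used. ATF3, a stress-induced transcription factor, had 715 and 554 in the constriction libraries and 1591 and 816 in the control libraries, with a log2 fold change of -0.92 (SE 0.50). In ATF3, NR4A1 and ZFP36 the groups did not overlap. Control replicate 1 was the highest library in these genes, and also in EGR1, FOS and DUSP1.

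On the length-corrected scale, the order of the control levels was EGR1 (262 ± 252 FPKM, SD, n = 2), FOS (214 ± 122), DUSP1 (196 ± 17.0), ZFP36 (32.3 ± 18.2), ATF3 (6.46 ± 3.15) and NR4A1 (3.29 ± 2.18). The first 3 did not differ beyond their spread, since the SD of EGR1 exceeded its distance to FOS and DUSP1. After transit the mean levels were 70.9 ± 60.1 for EGR1, 79.8 ± 34.0 for FOS and 86.3 ± 15.6 for DUSP1, so that DUSP1, the phosphatase, stood highest in mean of the 3, within their spread.

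Without control replicate 1, the log2 fold change was -0.34 for EGR1, -0.75 for FOS, -0.64 for ZFP36, -0.33 for NR4A1, -0.36 for ATF3 and -1.13 for DUSP1, so the direction held in all 6 and the value of DUSP1 moved least. In EGR1 each of the other 3 libraries also moved the value, to -3.12 without constriction replicate 1, -1.27 without constriction replicate 2 and -2.65 without control replicate 2. edgeR's adjusted p without the block was 0.141 for EGR1, 0.125 for FOS, 0.119 for DUSP1, 0.128 for ZFP36, 0.153 for NR4A1 and 0.181 for ATF3. With the replicate block, edgeR called EGR1 (adjusted p 0.00148), FOS (0.0121) and DUSP1 (0.0293) and not the other 3, against 72.2% of the whole table called under the same block. Over the settings tried, adjusted p ran from 0.00148 to 0.861 for EGR1, 0.0121 to 0.679 for FOS and 0.0293 to 0.539 for DUSP1. The same list gave 5 genes in the MDA-MB-231 table, 4 of them lower (33.3% of that table was lower), and 3 in the MCF-10A table, all lower (94.5%).

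**Figure D2:**
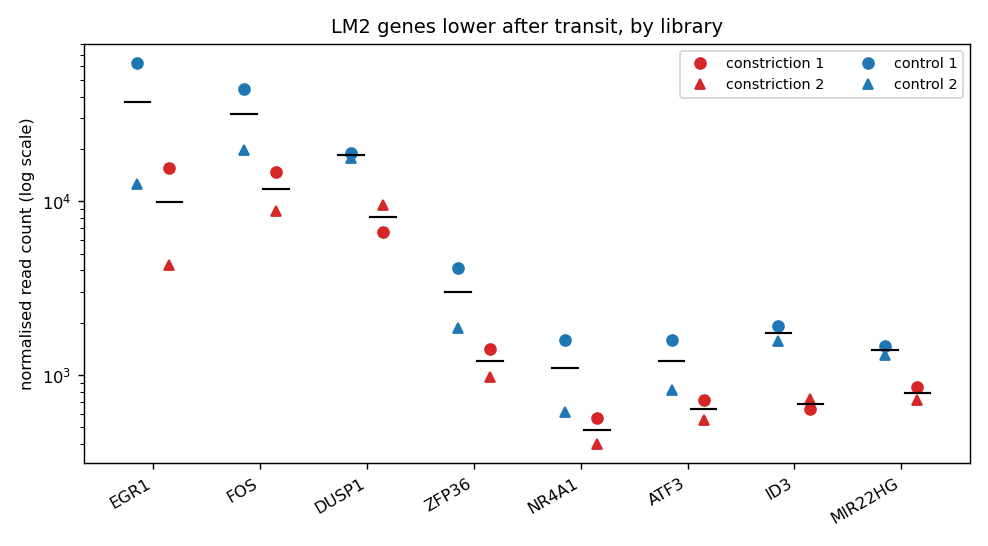
Normalised read count (vertical axis, log scale) of 8 genes with lower means after transit, in each LM2 library; red is constriction, blue is control, circles and triangles are replicates 1 and 2, and black lines are group means. Red points lie below blue points except in EGR1, where control replicate 2 (12552) lies below constriction replicate 1 (15555).

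Because these genes were lower together, their promoters are shown where a motif tied to their induction was found. RefSeq windows (GRCh38.p14) of 250 bases before to 50 bases after the start were searched on both strands for the CArG box, which serum response factor binds, and for TGACGTCA, the cAMP response element, which CREB and ATF proteins bind. All 6 genes had a window, 8 in all. The CArG box was found in 1 of the 8, that of EGR1, and in 1.29% of all 35116 promoters. TGACGTCA was found in 1, that of DUSP1, and in 1.85% of all promoters. A match is a description of the letters and no evidence of binding.
EGR1 promoter, chr5:138465229-138465528, plus strand, with its 2 CArG boxes in capitals: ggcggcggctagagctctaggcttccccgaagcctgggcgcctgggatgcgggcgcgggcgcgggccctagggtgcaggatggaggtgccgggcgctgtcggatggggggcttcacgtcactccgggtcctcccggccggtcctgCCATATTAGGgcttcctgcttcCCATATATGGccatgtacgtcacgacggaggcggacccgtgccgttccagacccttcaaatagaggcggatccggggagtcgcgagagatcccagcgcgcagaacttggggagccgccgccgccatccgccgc
DUSP1 promoter, chr5:172771146-172771445, minus strand, with TGACGTCA in capitals: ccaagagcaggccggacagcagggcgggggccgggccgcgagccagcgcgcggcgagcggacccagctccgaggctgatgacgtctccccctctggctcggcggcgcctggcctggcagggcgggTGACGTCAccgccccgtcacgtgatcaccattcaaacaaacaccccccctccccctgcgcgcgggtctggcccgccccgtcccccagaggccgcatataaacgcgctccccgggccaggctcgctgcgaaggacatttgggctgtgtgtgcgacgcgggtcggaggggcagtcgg
The CArG boxes of EGR1 began at positions -105 and -83 from the start site, and the TGACGTCA of DUSP1 at position -125. The windows of the other 4 genes held neither set of letters. Sites outside the windows, or with other letters, were not searched.

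Of the 20 lung metastasis symbols that were looked for, only ID3 was in the table. ID3, a transcriptional inhibitor that binds basic helix-loop-helix factors and belongs to the genes linked to lung colonisation in this lineage, had 634 and 728 in the constriction libraries and 1907 and 1568 in the control libraries. Every constriction library was lower than every control library, by a log2 fold change of -1.35 (SE 0.17). edgeR gave an adjusted p of 0.116 without the block and 0.0484 with it, and DESeq2 called it at 0.0342 (range over the settings tried 0.0342 to 0.539). MIR22HG, a non-coding host gene of miR-22, had 858 and 714 in the constriction libraries and 1478 and 1302 in the control libraries, with a log2 fold change of -0.82 (SE 0.16). Its libraries lay close together within each group, and its adjusted p by edgeR was 0.170 without the block.

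Ribosomal protein sequences gave 3 members. RPL26 codes for a protein of the large ribosomal subunit and had 680.3 and 1067 in the constriction libraries and 1647 and 2352 in the control libraries, a log2 fold change of -1.19 (SE 0.41). RPL39P3 is a processed pseudogene of RPL39 on chromosome 6, inside an intron of OOEP, and had 1376 and 1883 in the constriction libraries and 5188 and 4397 in the control libraries, a log2 fold change of -1.56 (SE 0.25). It was lower in both constriction libraries by a margin wider than the spread within either group, and edgeR gave it an adjusted p of 0.116 without the block and 0.0114 with it (range over the settings tried 0.0114 to 0.488). Its sequence is shown since it decides what these reads can mean. All of the 156 bases of RPL39P3, on the minus strand at chr6:73373108-73373263 of GRCh38 (GENCODE release 29), stood unchanged in 1 of the 3 annotated RPL39 transcripts.
RPL39P3: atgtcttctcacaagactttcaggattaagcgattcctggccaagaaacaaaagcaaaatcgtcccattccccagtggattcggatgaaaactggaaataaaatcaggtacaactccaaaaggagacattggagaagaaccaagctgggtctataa
Reads from RPL39 and RPL39P3 could therefore not be separated within these 156 bases, and RPL39 itself was not among the 97 genes. The third member, RPL31P47, had 19 reads in constriction replicate 1 and 0 in the other 3 libraries. EEF1A1P6, a processed pseudogene of an elongation factor, had 1815 and 2191 in the constriction libraries and 4349.5 and 2927 in the control libraries, with a log2 fold change of -0.86 (SE 0.31), and 60.9% of its 100-base windows occurred in transcripts of another gene.

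The table held 2 mitochondrial transcripts, and both were higher in mean after transit. MT-RNR1, the RNA of the small mitochondrial ribosomal subunit and the member with the most reads, had 71408 and 42808 in the constriction libraries and 31297 and 27712 in the control libraries. Both constriction libraries exceeded both controls, and the log2 fold change was 0.95 (SE 0.37), with an edgeR adjusted p of 0.141 without the block and 0.0801 with it. The log2 fold change was 0.54 without constriction replicate 1 and 1.28 without constriction replicate 2. MT-ATP8, a subunit of ATP synthase, had 3161 and 775 in the constriction libraries and 492 and 838 in the control libraries. Here the groups overlapped, because constriction replicate 2 fell inside the range of the controls.

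The log2 fold change of MT-ATP8 was 1.56 (SE 0.95) over all libraries and 0.22 without constriction replicate 1. The last 46 of its 207 bases, in capitals, also belong to MT-ATP6, so reads in them count for either gene or for none.
MT-ATP8, mitochondrial genome, chrMT:8366-8572, plus strand: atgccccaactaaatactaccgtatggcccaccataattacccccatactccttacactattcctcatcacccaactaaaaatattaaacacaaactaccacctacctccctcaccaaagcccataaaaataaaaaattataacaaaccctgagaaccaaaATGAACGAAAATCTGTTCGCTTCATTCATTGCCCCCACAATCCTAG

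A similar division between libraries was seen in RN7SL2, one of the genes of 7SL RNA, the scaffold of the signal recognition particle. It had 1671 and 144 in the constriction libraries and 201 and 79.7 in the control libraries, but 82.1% of its 100-base windows occur in transcripts of other genes, so in each line reads from these windows cannot be assigned to it alone. Constriction replicate 1 was far above the other 3 libraries, and constriction replicate 2 lay between the controls, so the groups overlapped. The log2 fold change was 2.68 (SE 1.36), and 0.04 without constriction replicate 1. With the replicate block edgeR gave an adjusted p of 0.0226, with a range of 0.00531 to 1.00 over the settings tried. The other 7SL member, the pseudogene RN7SL306P, had 19 reads in constriction replicate 1 and 0 in the rest.

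EIF3C, a subunit of the translation initiation factor eIF3, had 3139.8 and 782 in the constriction libraries and 699 and 992 in the control libraries. This gene too stood high in constriction replicate 1 alone: the log2 fold change was 1.21 (SE 0.90) over all libraries and turned to -0.11 without it. Of its windows, 42.9% occur elsewhere, mostly in EIF3CL. MT-ATP8, RN7SL2 and EIF3C were the 3 members with a mean of at least 100 that were higher and overlapped between groups.

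Histone genes, whose messages are made in S phase and mostly lack a poly A tail, gave 2 members, both higher. Neither overlapped between groups, as was so for 82.5% of the whole table. HIST1H1E, a linker histone, had 89.1 and 95.4 in the constriction libraries and 1.76 and 17.2 in the control libraries, a log2 fold change of 3.16 (SE 1.06). HIST1H4A, a core histone, had 17.4 and 17.2 in the constriction libraries and 1.76 and 1.01 in the control libraries, and with at most 2 reads in each control library it was at least 6.09-fold higher against a floor of 3 reads. The 2 constriction libraries agreed closely for both genes, while the controls of HIST1H1E lay far apart, and its log2 fold change was 2.36 without control replicate 1 and 5.08 without control replicate 2. With the replicate block edgeR's adjusted p was 0.0310 for HIST1H1E and 0.00462 for HIST1H4A, against 0.116 and 0.116 without it (range over the settings tried 0.0310 to 0.484 and 0.00462 to 0.484).

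XAGE1B, a cancer/testis antigen gene on the X chromosome, had 285 and 825 in the constriction libraries and 58.2 and 126 in the control libraries, a log2 fold change of 2.58 (SE 0.88). Unlike MT-ATP8, RN7SL2 and EIF3C it was highest in constriction replicate 2, and its log2 fold change was 1.62 without that library and 3.23 without control replicate 2. edgeR gave it an adjusted p of 0.116 without the block and 0.00736 with it (range over the settings tried 0.00736 to 0.484). SERF1B, which codes for a small basic protein, had 510.2 and 393 in the constriction libraries and 200.1 and 75.7 in the control libraries, a log2 fold change of 1.70 (SE 0.67), or 2.56 without control replicate 1 and 1.17 without control replicate 2. AL355032.1, a processed pseudogene in an intron of the non-coding gene LINC02320, had 614 and 211 in the constriction libraries and 82.8 and 76.7 in the control libraries, a log2 fold change of 2.36 (SE 0.71), and 1.39 without constriction replicate 1. TMEM238, which codes for a predicted membrane protein, had 170.1 and 425 in the constriction libraries and 123 and 152 in the control libraries and was the reverse case, at 1.11 (SE 0.64) over all libraries and 0.31 without constriction replicate 2. RALGAPA1P1, a pseudogene of a Ral GTPase activating subunit, had 248 and 137 in the constriction libraries and 67.9 and 90.8 in the control libraries, and 1.27 (SE 0.46) as its log2 fold change.

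**Figure D3:**
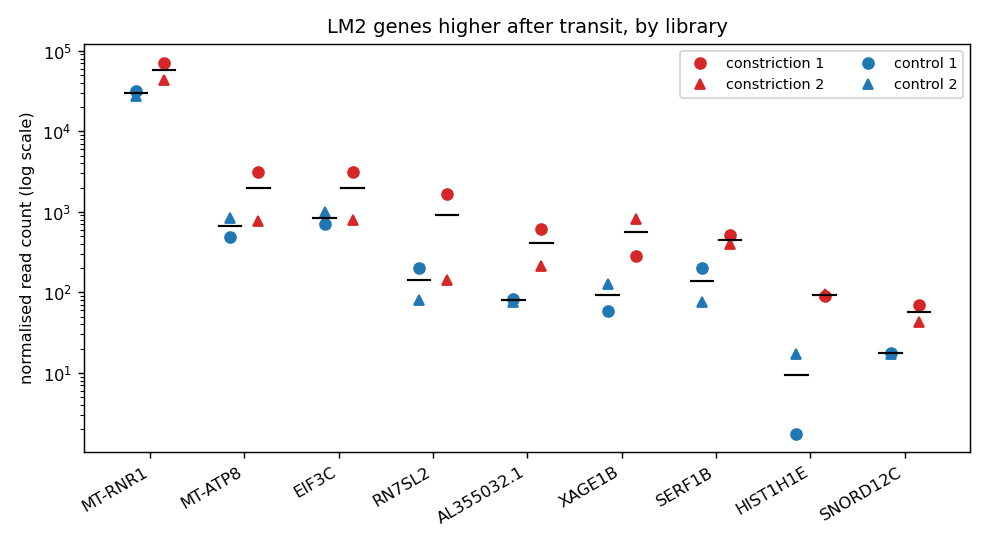
Normalised read count (vertical axis, log scale) of 9 genes with higher means after transit, in each LM2 library; colours, symbols and lines as in the plot of genes with lower means. In MT-ATP8, EIF3C and RN7SL2 constriction replicate 1 stands above the other 3 libraries, which lie together, while in XAGE1B constriction replicate 2 is the highest.

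Several of these genes have near-identical copies. More than 50% of the 100-base windows of a gene's transcripts occurred in a gene elsewhere for 14 of the 94 LM2 genes long enough to be searched (14.9%), against 6.72% of the genes listed for MDA-MB-231 and 2.31% of those for MCF-10A. Among coding genes the shares were 16.1%, 4.86% and 1.60%. XAGE1B shared 76.3% of its windows with XAGE1A, SERF1B 96.0% with SERF1A, and U2AF1L5, a copy of the splicing factor gene U2AF1, 89.4%. BOLA2B, which codes for an iron-sulphur cluster chaperone, shared 88.6%, mostly with BOLA2, and TBC1D3G all of them. The others over 50% were RPL39P3, EEF1A1P6, RN7SL2, AL627309.2, RALGAPA1P1, SNORD3A, GOLGA8DP, OR2A1-AS1 and TNXA. A read from such a stretch can be assigned to either copy or dropped, so the values of these genes are uncertain in a way the 4 libraries do not show.

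The values of these copies varied widely. U2AF1L5 had 117 and 299.5 in the constriction libraries and 227 and 791 in the control libraries; constriction replicate 2 exceeded control replicate 1, so the groups overlapped, and the log2 fold change was -1.29 (SE 1.02) and -0.13 without control replicate 2. BOLA2B had 15.04 and 19.1 in the constriction libraries and 269.7 and 26.2 in the control libraries, where control replicate 1 held nearly all of the difference: -3.04 (SE 1.19) over all libraries and -0.59 without it.

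Members inside introns were mostly higher. Of the 97 genes, 30 lay within an intron of a coding gene, and 25 of those (83.3%) were higher after transit, against 27 of the other 67 (40.3%). The groups did not overlap in 26 of the 30 and in 54 of the other 67, both close to the share of the whole table. On the strand opposite to the host 16 of 17 were higher, and on the same strand 9 of 13. Among the 13 whose normalised count averaged at least 10, 9 were higher. The shares were 88.8% inside introns and 57.0% elsewhere in the MDA-MB-231 table, but 6.65% and 5.26% for MCF-10A. Over all listed genes, 66.7% were higher in MDA-MB-231 and 5.49% in MCF-10A. Strand was not stated for the libraries, so reads of an intronic gene and of its host's unspliced RNA cannot be told apart. For the 13 genes on the same strand as their host, a known strand would not separate them either. AP000866.6, in an intron of MSANTD2, was the most abundant of those that were higher, with 366 and 176 in the constriction libraries and 147 and 96.9 in the control libraries and a log2 fold change of 1.14 (SE 0.58), or 0.52 without constriction replicate 1. TYRO3P, a pseudogene inside ETFA, had 50.9 and 15.3 in the constriction libraries and 7.05 and 4.04 in the control libraries, and NRBF2P5, inside GDI2, had 13.9 and 30.5 in the constriction libraries and 3.53 and 2.02 in the control libraries. Both were higher in each constriction library, with log2 fold changes of 2.38 (SE 0.82) and 2.62 (SE 0.59), which were 1.31 for TYRO3P without constriction replicate 1 and 1.98 for NRBF2P5 without constriction replicate 2. AL513523.2, inside GATAD2B, had 33.6 and 14.3 in the constriction libraries and 5.29 and 0 in the control libraries, and AC009065.5, inside PKD1, had 52.1 and 10.5 in the constriction libraries and 4.41 and 0 in the control libraries. In both of these, constriction replicate 1 was the highest library, as it was in the antisense gene AC053527.1, which lies in no such intron and had 41.6 and 18.1 in the constriction libraries and 0.881 and 4.04 in the control libraries.

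Small RNA genes gave 10 members, and the poly A enriched libraries are not made to measure them. SNORD12C, a box C/D snoRNA in an intron of ZFAS1, had 69.4 and 42.9 in the constriction libraries and 17.6 and 17.2 in the control libraries, and the log2 fold change was 1.64 (SE 0.33). SNORD3A, the U3 RNA that guides rRNA cleavage, had 81.0 and 41.0 in the constriction libraries and 7.93 and 15.1 in the control libraries and RNVU1-15, a variant U1 RNA, had 41.6 and 20.0 in the constriction libraries and 5.29 and 5.05 in the control libraries, both with no overlap. The members that were lower were SNORA31, with 0 reads after transit, and the miRNA gene MIR3153.

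The 2 miRNA genes went in opposite directions. MIR3153, in an intron of CKS2, had 9.26 and 5.72 in the constriction libraries and 41.4 and 33.3 in the control libraries, a log2 fold change of -2.18 (SE 0.34). MIR4296, in an intron of CTBP2, had 20.8 and 10.5 in the constriction libraries and 0.881 and 0 in the control libraries, which against a floor of 3 reads was at least 5.52-fold higher. Their mature sequences are printed to show that they share no seed (bases 2 to 8, in capitals).
hsa-miR-3153, chr9:89312274-89312296, plus strand: gGGGAAAGcgaguagggacauuu
hsa-miR-4296, chr10:125032844-125032860, minus strand: aUGUGGGCucaggcuca

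At the low end, 21 genes went unread in the 2 constriction libraries and 13 in the 2 control libraries. The first group includes C5AR2, a receptor for complement fragments (0 and 0 in the constriction libraries and 11.5 and 11.1 in the control libraries, at least 3.56-fold lower), and CLTRN, a membrane protein of the kidney and pancreas (0 and 0 in the constriction libraries and 11.5 and 8.07 in the control libraries, at least 3.08-fold lower). Over the 21, the bound on the fold ran from 2.71 to 8.21, where the highest value is IGHG1, read in control replicate 1 alone, and over the 13 it ran from 2.88 to 6.001. A mean of 10 or more was reached by 2 of the 21 and by 0 of the 13. Among members with more reads that were nearly absent after transit were 4 non-coding genes. AL627309.2, an antisense gene, had 3.47 and 0.954 in the constriction libraries and 37.0 and 21.2 in the control libraries, AC144831.1, a lincRNA, 3.47 and 0 in the constriction libraries and 31.7 and 12.1 in the control libraries, and AC084757.3, another lincRNA, 2.31 and 0.954 in the constriction libraries and 22.9 and 16.1 in the control libraries. They were at least 9.19-fold, 6.92-fold and 6.17-fold lower against the floor of 3 reads, and without control replicate 1 the log2 fold change of AC144831.1 was -2.26 in place of -3.07 (SE 1.10). All 100-base windows of AL627309.2 also occur in LINC01001, so its values and bound may belong to either gene. AC025857.2, in an intron of CTSB, had 4.63 and 0 in the constriction libraries and 31.7 and 12.1 in the control libraries. In all 4 the lower control library still exceeded the higher constriction library. A value of 0 at these depths limits the level to 3 reads a library, which is a normalised count of 2.64 to 3.47, and covers counting error only.

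Reads in essentially 1 library, with at most 2 in each of the others, marked 15 genes. In constriction replicate 1 there were 10 (MYCBP2-AS1, LRRN3, AL445928.1, EEF1A1P4, SDR9C7, AL022323.1, GOLGA8DP, RN7SL306P, RPL31P47 and AC104958.1), in control replicate 1 there were 5, and in the other 2 libraries 0. The 5 of control replicate 1 included the immunoglobulin constant genes IGHG1 with 59 reads, IGHG2 with 54 and IGKC with 38, which plasma cells express, and none of the 3 had a read in any other library. The source of these reads was not tested. Over the 22 genes with a mean of at least 100, the larger of the 2 constriction values was a median of 1.67 times the smaller, up to 11.6 times, and that of the 2 control values 1.503 times, up to 4.98 times.

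Of the 97 genes, 20 were also listed for another line and 77 for none. All 12 genes shared with MDA-MB-231, the parent of LM2, had the same direction in both lines, as did 7 of the 12 shared with MCF-10A, and 4 were in all 3 tables (AL355032.1, RPL39P3, RN7SL2 and MT-ATP8). Each table holds genes selected by its own comparison, so agreement in direction is a description of the lists. In MDA-MB-231, RN7SL2 had 3452 and 2459 in the constriction libraries and 228 and 163 in the control libraries, and both constriction libraries lay above both controls, which was not so in LM2. The same held for MT-ATP8, with 1895 and 3327 in the constriction libraries and 415 and 881 in the control libraries. In MCF-10A, RN7SL2 repeated the division seen in LM2, with 1589 and 52.8 in the constriction libraries and 94.0 and 49.0 in the control libraries, where constriction replicate 1 alone was high.

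The log2 fold change of RPL39P3 was -1.56 (SE 0.25) in LM2, -2.06 (SE 0.46) in MDA-MB-231 and -2.88 (SE 0.87) in MCF-10A, with no overlap in any line. ATF3 was lower in LM2 without overlap, but in MDA-MB-231 it overlapped, at 434 and 597 in the constriction libraries and 489.7 and 1351 in the control libraries. HIST1H1E had a log2 fold change of 1.75 (SE 0.20) there, and RPL26 and EEF1A1P6 -1.11 (SE 0.37) and -0.85 (SE 0.14). HIST1H4A was higher there too, with 38 and 27 reads in the constriction libraries and 2 and 3 in the control libraries. Its control values were at the floor of 3 reads. The difference between lines was not tested for any of these genes.

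**Figure D4:**
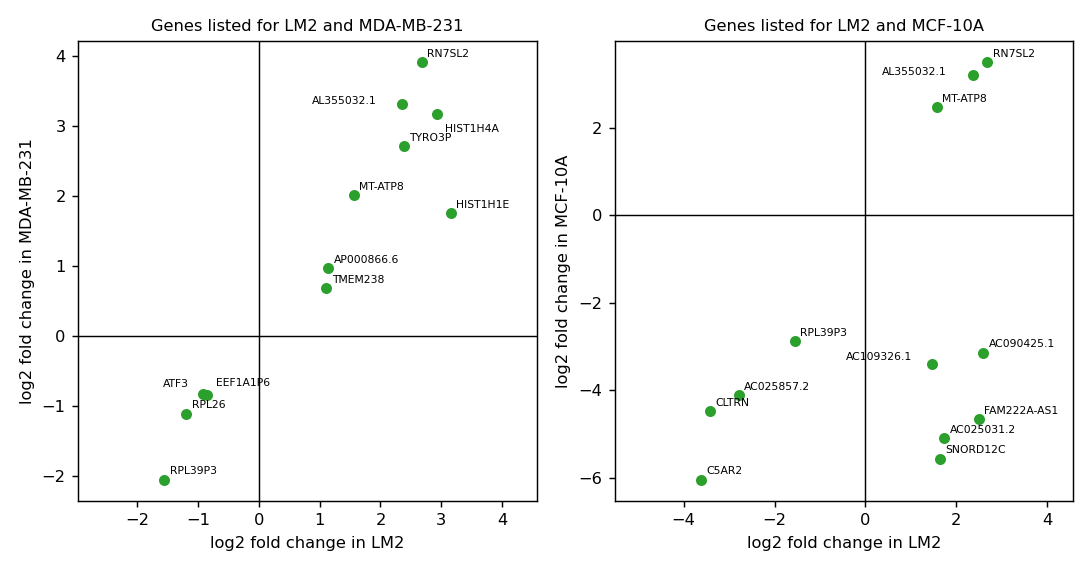
Log2 fold change after transit in LM2 (horizontal axes) against MDA-MB-231 (left, 12 genes) and MCF-10A (right, 12 genes) for the genes listed in both tables. All 12 points on the left lie in the quadrants of equal sign, and on the right 5 points lie at the lower right, where the gene was higher in LM2 and no read was counted in either constriction library of MCF-10A.

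Lists with no member in the LM2 table were the integrated stress response and heat shock genes (17 symbols), NF-κB and inflammatory genes (21), interferon and cytosolic DNA sensing genes (25), nuclear envelope genes (17) and genes whose symbols begin with ZNF, ZBTB, ZSCAN or ZKSCAN, which name many zinc finger factors but not EGR1. The table holds selected genes, so the level of a gene outside it was not analysed here, and an empty list says nothing of whether it changed.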

How the data were processed

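RNA from 2 LM2 constriction and 2 LM2 control libraries was sequenced after poly A enrichment. Per the labels and the paper's methods, the authors filtered reads with fastp, aligned them to GRCh38 with HISAT2 2.0.5 and counted them per gene with featureCounts 1.5.0-p3, yielding the deposited counts. Dividing these by DESeq2 1.20.0 size factors gave the authors' deposited normalised counts (signal), and gene lengths were used for the deposited FPKM. The deposited log2 fold changes, p-values, adjusted p-values and GO enrichments are the authors' own comparison and were not used. Library strandedness is not stated.

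Gene positions were matched to GENCODE release 29, where all 97 genes were found. Tests were run on the counts of the 97 genes with edgeR 4.0.16 in R 4.3.3 (quasi-likelihood, two-sided, deposited size factors, Benjamini-Hochberg adjustment over the 97 genes, threshold 0.05), without a block, since the study's methods name none. DESeq2 1.42.0 and limma 3.58.1 were alternatives. The tests were checked on simulated data. Log2 fold changes were computed on mean normalised counts with a pseudocount of 1, the SE coming from the library SDs of both groups, and groups with at most 3 reads in each library were set to a floor of 3 reads, as the mean over their libraries, for bounds.

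The study lists the control and constriction cells of each replicate in 1 row, so the numbers were taken to pair the libraries. Deviations from group means correlated at -0.03 over 97 genes, 0.05 over the 52 averaging at least 10 normalised counts and 0.46 over the 22 with at least 100. Members and lists were chosen with earlier results of these data known. Named genes were those in a list, in another line's table, with a mean of at least 100, or among the 5 largest rises and 5 largest falls with no overlap and a mean of at least 10; others named are examples chosen after their values were seen. Alternatives added after seeing the data were the block with the minimum of 10, limma with a pseudocount of 10 and the block, and the intron count under a filter and with each library left out. P-values measure the spread between these libraries.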

Additional observations from a re-analysis of the deposited data

Results flagged for a closer look

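Among the genes shared with MCF-10A, 5 moved one way in every LM2 library pair and the other way in every MCF-10A library pair, which is why they are given here. The difference between the lines was not tested, and the tables were normalised separately. FAM222A-AS1, an antisense gene, had 22.0 and 25.8 in the constriction libraries and 1.76 and 5.05 in the control libraries of LM2, a log2 fold change of 2.50 (SE 0.55), or 2.04 without control replicate 1 and 3.17 without control replicate 2. In MCF-10A it had 0 and 0 reads in the constriction libraries and 15 and 43 in the control libraries, at least 7.24-fold lower. AC025031.2, also antisense, had 99.5 and 34.3 in the constriction libraries and 24.7 and 14.1 in the control libraries of LM2, with a log2 fold change of 1.73 (SE 0.79), or 0.79 without constriction replicate 1, and in MCF-10A it was at least 9.86-fold lower. SNORD12C, described above, had a log2 fold change of 1.64 (SE 0.33) in LM2, against 30 and 80 control reads and no constriction read in MCF-10A, at least 13.8-fold lower.

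AC109326.1, an unclassified gene, had 127 and 55.3 in the constriction libraries and 33.5 and 31.3 in the control libraries of LM2, with a log2 fold change of 1.47 (SE 0.56), or 0.75 without constriction replicate 1, and AC090425.1, an antisense gene, had 22.0 and 16.2 in the constriction libraries and 2.64 and 2.02 in the control libraries and a log2 fold change of 2.59 (SE 0.25) (at least 6.73-fold higher). In MCF-10A, neither gene had a read in the constriction libraries. The control libraries held 4 and 19 reads of AC109326.1, the first of which is close to the floor of 3 reads, so no bound is given, and 7 and 11 of AC090425.1, at least 2.31-fold lower. Of the 2680 genes listed for MCF-10A, 2402 had 0 reads in both constriction libraries, 89.6% of that table, against 21.6% of the LM2 table.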

How the results depend on the processing

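Depth limits the 45 genes with a mean normalised count under 10, and 2 libraries a group limit every test. Against 0 genes called by edgeR, 5 were called by DESeq2, 33 by limma with a pseudocount of 1, and 70 with the replicate block. Among settings added after seeing the data, 15 were called with the block and a minimum mean of 10, and 7 by limma with a pseudocount of 10 and the block. TMM factors, limma with a pseudocount of 10, the minimum mean of 10 and the crossed pairing gave 0. With 1 library left out, from 0 to 47 were called, the most (47) without constriction replicate 2, 30 without constriction replicate 1, 2 (IGHG1 and IGHG2) without control replicate 2 and 0 without control replicate 1; the lone library is then assumed to vary like the others.

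At a minimum mean of 10, 25 genes were lower, 43 did not overlap, 2 had 0 reads after transit and 0 had 0 reads in control, 9 genes inside introns were higher and 4 shared with MCF-10A had the same direction, since fewer genes were counted. With a library left out, 42 to 48 genes were lower, 82 to 92 did not overlap, 21 to 33 had 0 reads after transit (33 without constriction replicate 1), 13 to 25 had 0 in control (25 without control replicate 1) and 21 to 25 inside introns were higher. TMM factors of the listed genes raised the median log2 fold change by 0.12, and the number of genes that were lower was again 45. Of the 43 named genes, 1 turned sign, EIF3C, at -0.11 without constriction replicate 1 (up to 1.89 without constriction replicate 2), and the cause was not tested. The block changed the call of 25 of the 43 (58.1%), against 72.2% of the whole table.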
